A study of Rattus norvegicus with 8 samples.

Results

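The enzymes that chemically modify foreign compounds, lipids, steroids and reactive aldehydes were followed in the cerebral cortex of mature rats that had survived a neonatal hypoxic-ischemic insult. The genes were chosen by name: a rat symbol that begins with Cyp and a digit, Aldh, Akr, Ces, Gst, Ugt or Sult, leaving out Cyp51, Sult1a1, Aldh1a2 and Aldh1l1. Of 123 such genes with a probe on the array, 53 had a probe well above background on every array of at least 1 group, and these 53 are the members described, among 21677 genes tested in all. The hypoxia-ischemia group (HI, labelled Rice) was 4 Wistar rats in which the left carotid artery was ligated and cut at 7 days of age, followed after a rest by 1 h in 8% oxygen at 33 °C. The Control group was 4 Wistar rats with no insult, and whether they had a sham operation is not given in the sources used here. All 8 animals were 8 weeks old when cortex was taken, from the side opposite the insult in HI rats and from the same side in Control rats, so the injured side was not measured.

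Cytochrome P450 enzymes (Cyp) use oxygen and electrons from P450 oxidoreductase to hydroxylate or epoxidise their substrates, and together with aldehyde dehydrogenases (Aldh), aldo-keto reductases (Akr) and carboxylesterases (Ces) they make up the functionalising reactions known as phase I. Glutathione S-transferases (Gst), UDP-glucuronosyltransferases (Ugt) and sulfotransferases (Sult) attach glutathione, glucuronic acid or sulfate, the conjugating reactions of phase II. The transcription factor Nrf2 drives many of the phase II genes through antioxidant response elements, and the aryl hydrocarbon receptor drives several Cyp genes. In brain, members of these families are known from astrocytes, blood vessels, the choroid plexus and the meninges, and some serve local lipids such as arachidonic acid, retinoic acid and cholesterol rather than foreign compounds.

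Levels are log2 of the processed probe intensity minus the 75th percentile of the same array, so that 0 is the 75th percentile; each probe has its own brightness, and levels were compared between animals and not between genes. Fold changes are HI minus Control on this log2 scale, with the standard error (SE) and the p-value of the limma test, adjusted by Benjamini-Hochberg over all 21677 genes. Between 57.7% and 66.2% of the probes on an array were well above background. Control 1 stood apart: its 75th percentile was an intensity of 234.2, against 436.1 to 510.2 on the 7 other arrays, and it correlated with them at 0.942 to 0.954, where they correlated with each other at 0.973 to 0.990. The 4 HI arrays shared 1 slide and scan and the 4 Control arrays another, which means that group, slide and scan cannot be told apart. In whole cortex, fewer cells of a type and less RNA per cell cannot be told apart either.

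No member passed the test. The adjusted p of the 53 members lay between 0.316 and 0.980, while 0.918% of all genes tested passed an adjusted p of 0.05, 0.194% higher and 0.724% lower after HI. At an unadjusted p under 0.05 there were 6 members, 11.3% of the 53, of which 5 were higher and 1 lower after HI; over all genes the share was 10.6%, with 4.44% higher and 6.15% lower. The members' share was therefore near that of all genes. Only Cyp4b1 had all 4 HI animals above all 4 Control animals, against 5.97% of all genes, and no member had all HI animals below all Control animals, against 8.24% of all genes. This gene was kept through the HI group alone. All other members differed by less than 2-fold, and 27 members differed by less than 0.25 in either direction. A p above the threshold does not show that a gene was alike in both groups: the 95% confidence intervals of the members reached as low as -1.44 and as high as 2.41.

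The signs of these small differences were uneven. After HI 42 members were measured above Control and 11 below, that is 79.2% above, where 47.0% of all genes were above. Their median log2 change was 0.20, and that of all genes -0.03. The size of the change without its sign had a median of 0.25 in the members and 0.23 in all genes. The probe filter bears on this count, since 10 members were well above background on all HI arrays but not on all Control arrays and 0 the other way round; over all genes these were 2363 and 151. Among the 43 members well above background on all 8 arrays, 33 were above 0 and the median was 0.16, against -0.04 for all genes kept by that rule. Without the array of Control 1 the median of the 53 was 0.14, with 37 above and 16 below 0, and without Control 1 and HI 2 together it was 0.08, with 35 above and 18 below 0. After normexp background correction it was 0.04 with 75th percentile scaling, against -0.07 for all genes, and 0.13 with quantile scaling, against 0.01. Without normexp it was 0.22 with quantile scaling, against 0.02 for all genes, and 0.28 with median scaling, against 0.05. In the deposited log2 table it was 0.22, against -0.01 for all genes. With no filter on dim probes, which takes in all 123 genes of the rule, it was -0.13, against -0.17 for all genes, so the sign turned and the members lay close to all genes.

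**Figure D1:**
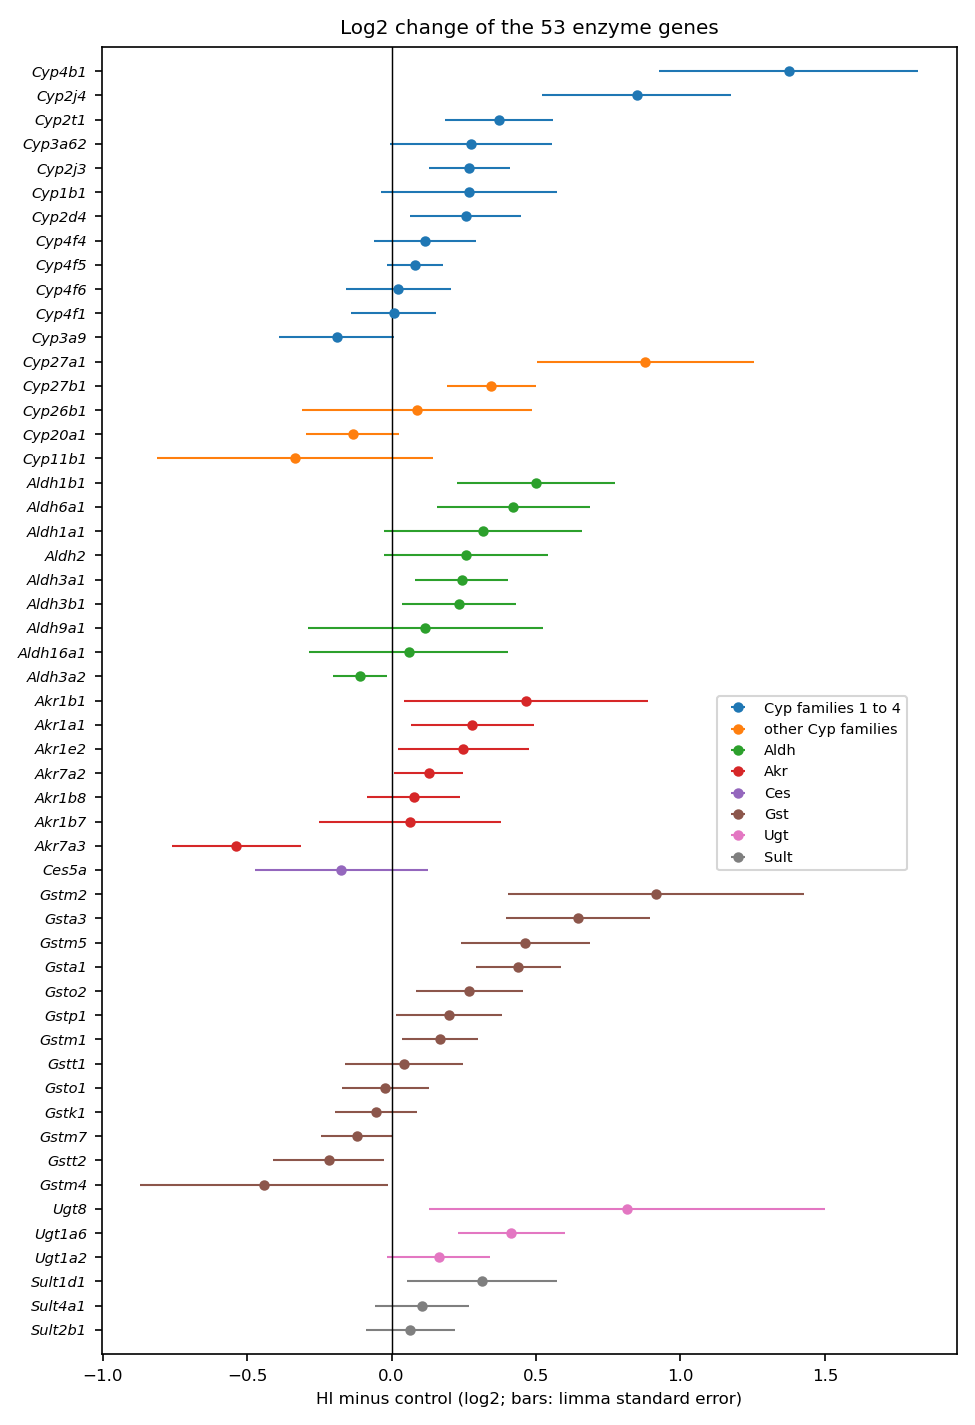
Log2 change (HI minus Control, horizontal axis) of the 53 members, grouped and coloured by enzyme family; bars are the limma standard error in either direction. Most points lie to the right of 0, from Akr7a3 at -0.54 to Cyp4b1 at 1.37, and no member passed an adjusted p of 0.05.

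The 6 members with an unadjusted p under 0.05 were Cyp4b1, Gsta1, Gsta3, Cyp2j4 and Cyp27a1, higher after HI, and Akr7a3, lower. They belong to 3 families, the P450s, the alpha-class glutathione S-transferases and the aldo-keto reductases. Of the 6, 3 hold a match to the antioxidant response element, TGACNNNGC, searched on both strands in the window from 250 bases before to 50 bases after the annotated gene start. These windows, from RefSeq on the GRCr8 assembly, are shown because they carry the match and because those of Gsta1 and Gsta3 align around it. They are written 5′ to 3′ along the gene's strand with the match in capitals: Cyp4b1 at chr5:134393067-134393366 (minus strand), Gsta1 at chr9:31216483-31216782 (minus strand) and Gsta3 at chr9:31154739-31155038 (plus strand).
Cyp4b1: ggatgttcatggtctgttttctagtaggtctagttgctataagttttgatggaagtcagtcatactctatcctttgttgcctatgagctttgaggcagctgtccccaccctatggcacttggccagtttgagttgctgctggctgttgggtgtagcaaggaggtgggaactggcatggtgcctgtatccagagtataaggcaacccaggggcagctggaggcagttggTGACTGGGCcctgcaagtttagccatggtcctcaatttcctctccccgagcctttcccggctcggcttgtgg
Gsta1: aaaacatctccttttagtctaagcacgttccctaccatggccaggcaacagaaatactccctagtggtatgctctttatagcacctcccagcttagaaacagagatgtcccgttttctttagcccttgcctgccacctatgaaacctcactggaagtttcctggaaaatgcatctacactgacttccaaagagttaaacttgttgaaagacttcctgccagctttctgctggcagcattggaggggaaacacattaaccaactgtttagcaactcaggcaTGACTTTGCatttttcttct
Gsta3: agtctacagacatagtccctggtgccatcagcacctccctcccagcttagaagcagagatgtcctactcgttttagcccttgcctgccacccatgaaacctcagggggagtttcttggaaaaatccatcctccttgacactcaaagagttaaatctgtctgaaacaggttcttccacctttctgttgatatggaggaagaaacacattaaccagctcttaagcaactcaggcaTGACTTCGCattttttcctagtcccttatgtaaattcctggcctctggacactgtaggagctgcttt
The matches start at -22 from the gene start in Cyp4b1, at 30 in Gsta1 and at -17 in Gsta3. The Gsta1 and Gsta3 matches are identical at 8 of 9 bases and are flanked by 13 identical bases before and 6 after. Of the 45 members with a RefSeq window, 9 (20%) held TGACNNNGC, against 12.1% of 33469 windows of all genes. The other holders were Aldh16a1, Gstp1, Gstm5, Gstm7, Cyp26b1 and Aldh9a1. The median log2 change was 0.20 in the 9 members with the match and 0.24 in the 36 without, and without Control 1 it was 0.32 and 0.14. The core of the aryl hydrocarbon receptor site, TTGCGTG, was found in 2 of the 45 windows (4.44%), those of Akr7a2 and Aldh3a2, against 1.17% of all windows, and the 2 motifs share no member. All of these matches lay on the strand of the gene.

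**Figure D2:**
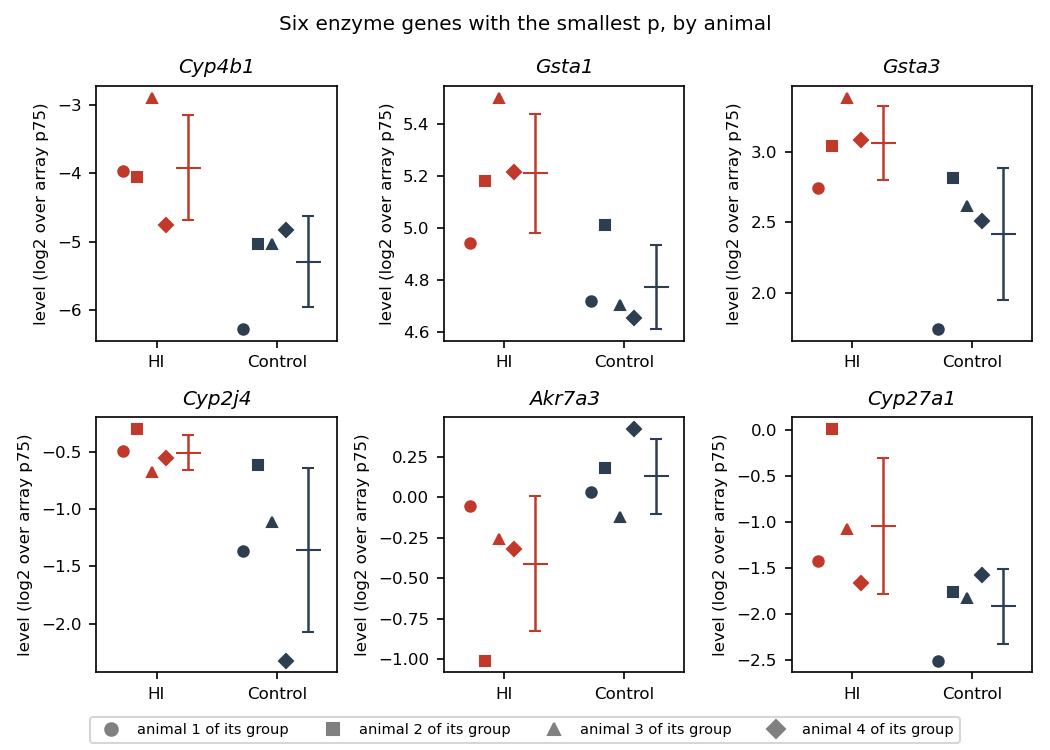
Level (log2 over the array's 75th percentile, vertical axis) of the 6 members with the smallest p in each of 4 HI and 4 Control animals, with the mean and SD of each group. The groups overlap in all panels but that of Cyp4b1, where the lowest HI animal is at -4.76 and the highest Control animal at -4.83.

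Of 40 genes of the P450 families 1 to 4, which hold most of the drug-metabolising and fatty acid-oxidising forms, 12 were members. After HI 11 of the 12 were above Control, with a median log2 change of 0.26, and 2 had an unadjusted p under 0.05. This median was 0.14 without HI 2, and -0.25 over all 40 genes with no filter. After normexp it was 0.049 with 75th percentile scaling and 0.13 with quantile scaling. Cyp4b1 (NM_016999), a monooxygenase of lung and other extrahepatic tissues that activates some protoxins and hydroxylates fatty acids, measured -3.97, -4.06, -2.89 and -4.76 in the HI animals and -6.28, -5.03, -5.04 and -4.83 in the Control animals. Every HI animal was above every Control animal, and Control 1 was the lowest. The log2 change was 1.37 (SE 0.448, adjusted p = 0.316), and 1.05 without Control 1. In Control the probe was well above background in 1 animal only, so the Control level lies close to background. After a normexp background correction the change was 0.12 with 75th percentile scaling and 0.36 with quantile scaling.

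Cyp2j4, which belongs to the arachidonic acid epoxygenases, measured -0.50, -0.30, -0.67 and -0.56 in HI cortex and -1.37, -0.62, -1.11 and -2.32 in Control cortex. The HI animals lay close together and Control 4 was far below the others, with Control 2 inside the HI range. HI exceeded Control by 0.85 (SE 0.328, adjusted p = 0.405), and 0.53 without Control 4. Its neighbour Cyp2j3, an epoxygenase of the same subfamily, was higher by 0.27 (SE 0.140, adjusted p = 0.537), and a second, dimmer Cyp2j3 probe by 0.43. Cyp2t1 differed by 0.37 (SE 0.187, adjusted p = 0.528), and by 0.21 without HI 2. Cyp2d4, the CYP2D form known from rat brain, differed by 0.26, and by 0.06 without Control 1. A second, dimmer Cyp2d4 probe differed by 0.10 with all animals.

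The 4 measured Cyp4f genes, omega-hydroxylases of leukotriene B4 and other fatty acids, differed by 0.01 (Cyp4f1), 0.02 (Cyp4f6), 0.08 (Cyp4f5) and 0.12 (Cyp4f4), with adjusted p from 0.659 to 0.980. Without Control 1 these were 0.14, 0.20, 0.08 and 0.28 in the same order of genes. Cyp3a62 differed by 0.28 (SE 0.279; 0.51 without HI 2), and its neighbour Cyp3a9 by -0.19 (SE 0.200; -0.04 without HI 2), the only member of these families below 0. Cyp1b1, an estradiol and polycyclic hydrocarbon hydroxylase induced by the aryl hydrocarbon receptor, measured -3.45, -2.19, -2.98 and -3.59 in HI cortex and -3.25, -3.65, -3.33 and -3.06 in Control cortex. HI 2 stood above the other 7 animals, and the log2 change was 0.27 with it and -0.02 without it. The other 28 genes of these families were not well above background throughout either group. Among them were Cyp1a1 and the liver forms Cyp1a2, Cyp2c11, Cyp2e1 and Cyp3a2.

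Of 15 genes of the other P450 families, which act on sterols, steroids, vitamins and retinoids, 5 were members, 3 above Control and 2 below. Their median log2 change was 0.09, -0.16 without HI 2 and 0.34 without Control 1. Cyp27a1, a mitochondrial sterol hydroxylase that makes 27-hydroxycholesterol, measured -1.42, 0.01, -1.07 and -1.66 after HI and -2.51, -1.76, -1.82 and -1.57 in Control. HI 2 was the highest animal and Control 1 the lowest, and HI 4 lay below Control 4. HI exceeded Control by 0.88 (SE 0.375, adjusted p = 0.462), 0.53 without HI 2, 0.68 without Control 1 and 0.33 without both. Cyp27b1, which activates vitamin D, measured -3.03, -3.17, -3.23 and -3.30 after HI and -3.13, -3.58, -3.76 and -3.63 in Control. The 4 HI animals were above Control 2, 3 and 4, and Control 1 lay inside their range. The log2 change was 0.35 (SE 0.153, adjusted p = 0.483), and without Control 1 it was 0.48 (adjusted p = 0.0322), at which 3.67% of all genes passed. With all animals the change was -0.0048 after normexp with 75th percentile scaling and 0.18 after normexp with quantile scaling.

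Cyp26b1, which clears retinoic acid, measured 1.19, 2.70, 1.67 and 1.14 in HI cortex and 2.34, 1.11, 1.56 and 1.34 in Control cortex. HI 2 and Control 1 were the highest of their groups, and the log2 change was 0.09 (SE 0.398), -0.25 without HI 2 and 0.34 without Control 1. Cyp11b1, of corticosteroid synthesis, differed by -0.33 (SE 0.478), with Control 4 at -1.86 above all other animals (-4.29 to -2.98). Cyp20a1, a P450 without a settled substrate, differed by -0.13 (SE 0.161), and by -0.29 without Control 1. The steroidogenic Cyp11a1, Cyp17a1 and Cyp19a1 and the bile acid enzyme Cyp7a1 were among the 10 genes not kept.

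Of 10 aldehyde dehydrogenase genes 9 were members, and 8 of the 9 were above Control with a median log2 change of 0.24. None had an unadjusted p under 0.05. The mitochondrial acetaldehyde dehydrogenases Aldh1b1 and Aldh2 differed by 0.50 (SE 0.273, adjusted p = 0.550) and 0.26 (SE 0.284), and in both Control 4 was the lowest of the 8 animals, at -3.45 and 2.04. Aldh1a1, which oxidises retinaldehyde, differed by 0.32 (SE 0.343), again with Control 4 lowest at -1.16. Aldh3a1 measured -0.14, -0.25, 0.06 and -0.09 after HI and 0.04, -0.60, -0.53 and -0.30 in Control, a log2 change of 0.24 (SE 0.161) and of 0.37 without Control 1. Its neighbour Aldh3a2, the fatty aldehyde dehydrogenase, was the only one below Control, by -0.11 (SE 0.0945, adjusted p = 0.596). Aldh3b1 differed by 0.23, Aldh6a1, of valine breakdown, by 0.42 and Aldh16a1 by 0.06; without Control 1 these were 0.41, 0.14 and -0.27.

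Aldh9a1, which oxidises aminoaldehydes on the way to GABA and carnitine, measured -0.89, -0.71, -0.94 and -0.95 in HI cortex and -2.36, -0.50, -0.60 and -0.50 in Control cortex. The 4 HI animals lay below Control 2, 3 and 4 and above Control 1. The log2 change was 0.12 (SE 0.406) with all animals, -0.34 without Control 1 (adjusted p = 0.0656) and -0.39 without Control 1 and HI 2 (adjusted p = 0.0278), where 3.29% of all genes passed.

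Of 14 aldo-keto reductase genes 7 were members, 6 above Control and 1 below, with a median log2 change of 0.13. The median was 0.02 without Control 1, and -0.12 over all 14 genes with no filter. Akr7a3, known in rat as the aflatoxin aldehyde reductase, measured -0.05, -1.01, -0.26 and -0.32 in HI cortex and 0.04, 0.18, -0.12 and 0.42 in Control cortex. HI 2 was lowest, and only HI 1 reached into the Control range. The difference was -0.54 (SE 0.223, adjusted p = 0.444), and -0.34 without HI 2. Its neighbour Akr7a2, a succinic semialdehyde reductase of brain, differed by 0.13 (SE 0.118). Akr1b1, the aldose reductase, measured -0.73, -0.75, -0.78 and -0.88 after HI and -2.65, -0.56, -1.03 and -0.76 in Control, so that its log2 change of 0.47 (SE 0.422) was -0.00 without Control 1. Akr1a1, the general aldehyde reductase, differed by 0.28 (0.06 without Control 1), Akr1e2 by 0.25 (0.01), Akr1b8 by 0.08 (-0.06 without HI 2) and Akr1b7 by 0.06 (-0.11 without HI 2). None of the 6 others had an unadjusted p under 0.05, and the steroid-converting Akr1c genes were not well above background throughout either group. The only carboxylesterase member of 7 genes was Ces5a, at a log2 change of -0.17 (SE 0.299), and -0.48 without Control 1.

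**Figure D3:**
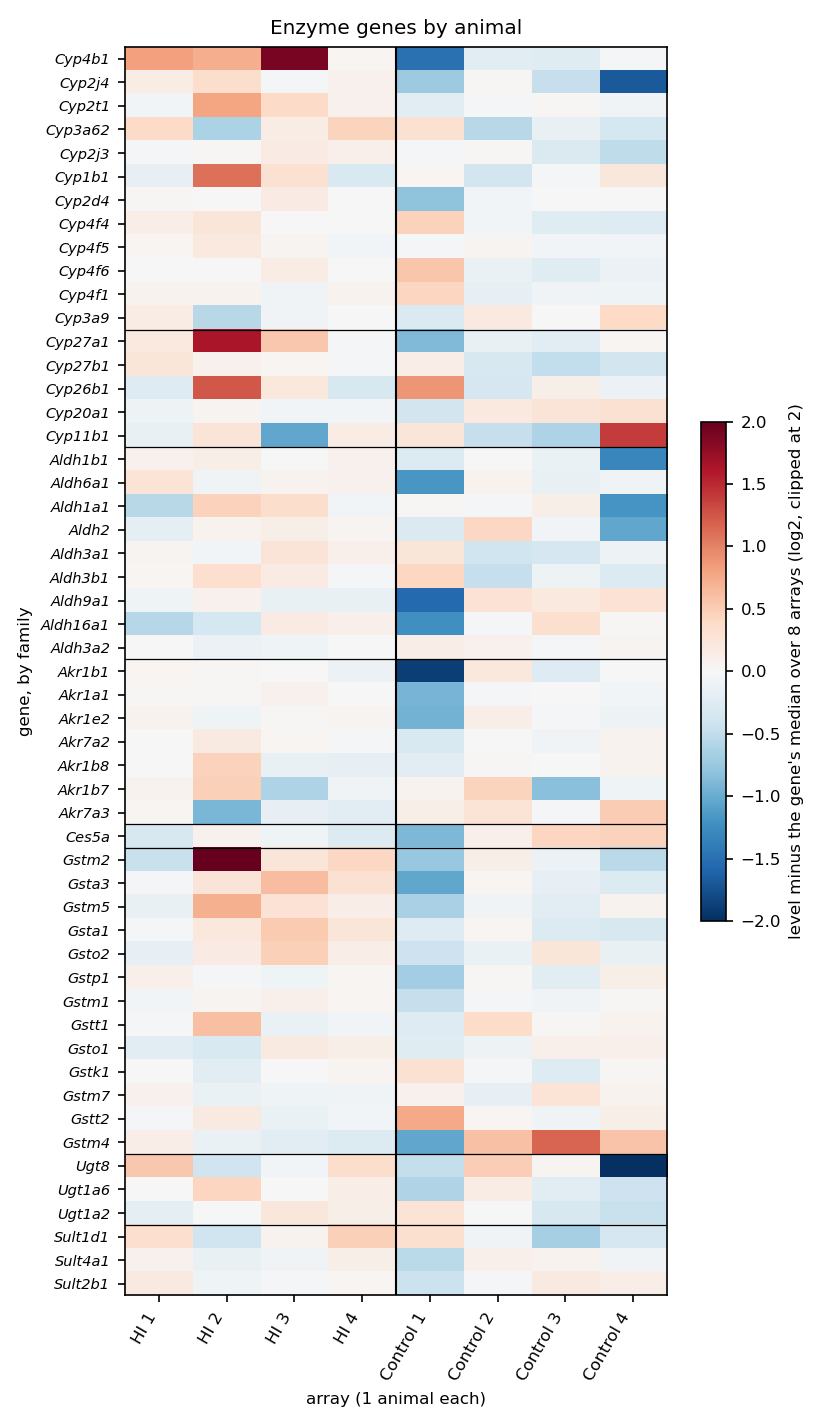
Heat map of the 53 members (rows, by family) in the 4 HI and 4 Control animals (columns), coloured by the level minus the gene's median over the 8 arrays on the log2 scale, with colours ending at 2 in either direction. The column of Control 1 is low for many genes and that of HI 2 is high for a few.

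Of 16 glutathione S-transferase genes 13 were members, 8 above Control and 5 below, with a median log2 change of 0.17. The median was 0.04 without Control 1, and 0.01 over all 16 genes with no filter. After normexp it was 0.03 with 75th percentile scaling and 0.10 with quantile scaling. Both members of the alpha-class pair printed with Cyp4b1 were higher after HI. Gsta1 (NM_031509) measured 4.94, 5.18, 5.50 and 5.21 in HI cortex and 4.72, 5.01, 4.70 and 4.65 in Control cortex. HI 1 lay just below Control 2, and the other HI animals were above all Control animals. The log2 change was 0.44 (SE 0.148, adjusted p = 0.332), and 0.42 without Control 1. Gsta3 (NM_001009920) measured 2.74, 3.04, 3.39 and 3.09 in HI cortex and 1.74, 2.81, 2.61 and 2.51 in Control cortex, with the same order of overlap. Its log2 change was 0.65 (SE 0.249, adjusted p = 0.401), and 0.42 without Control 1. These alpha-class genes neighbour each other and are similar in sequence, so their probes may share targets, which was not tested.

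The 5 mu-class members, which lie in 1 cluster of neighbouring genes, differed in both directions. Gstm5 measured 1.37, 2.23, 1.81 and 1.65 after HI and 0.86, 1.45, 1.31 and 1.58 in Control, a log2 change of 0.46 (SE 0.222, adjusted p = 0.516). The change was 0.31 without HI 2, 0.32 without Control 1 and 0.16 without both. Gstm2 measured -3.47, -0.89, -2.78 and -2.61 after HI and -3.79, -2.91, -3.14 and -3.57 in Control, with HI 2 far above the rest; the log2 change was 0.92 (SE 0.512) and 0.40 without HI 2. Gstm1 differed by 0.17 (0.06 without Control 1) and Gstm7 by -0.12. Gstm4 measured 0.83, 0.57, 0.50 and 0.43 in HI cortex and -0.34, 1.29, 1.87 and 1.28 in Control cortex. All 4 HI animals were below Control 2, 3 and 4 and above Control 1. The difference was -0.44 (SE 0.428, adjusted p = 0.612), and without Control 1 it was -0.90 (adjusted p = 0.043).

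The pi-class Gstp1 differed by 0.20 (SE 0.183, 0.03 without Control 1), the omega-class Gsto2 by 0.27 (SE 0.184) and Gsto1 by -0.02, and the mitochondrial and peroxisomal kappa-class Gstk1 by -0.05. The theta-class Gstt1 differed by 0.04, and the signs of Gsto1, Gstk1 and Gstt1 turned when single arrays were left out. Gstt2 was measured by a pair of probes with opposite signs, -0.22 for the brighter one used here and 0.47 for the other, so its direction is not settled.

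Of 11 glucuronosyltransferase genes 3 were members, all above Control, with a median log2 change of 0.41. After normexp it was 0.01 with 75th percentile scaling and 0.13 with quantile scaling, and over all 11 genes with no filter it was -0.30. Of the 3, Ugt1a6 and Ugt8 were kept through the HI group alone, so the probe filter bears on this count. Only Ugt1a2, at 0.16, was well above background on all 8 arrays. Ugt1a6, which conjugates phenols, measured -4.38, -3.96, -4.40 and -4.25 after HI and -4.99, -4.24, -4.61 and -4.81 in Control, a log2 change of 0.41 (SE 0.185, adjusted p = 0.485). In Control its probe was well above background in 2 of 4 animals. Ugt1a2, made from the same locus with shared last exons, differed by 0.16 (SE 0.178) and by 0.27 in a second probe. Ugt8, which makes the galactosylceramide of myelin and takes no part in detoxification, measured -2.63, -3.56, -3.23 and -2.82 in HI cortex and -3.65, -2.67, -3.11 and -6.07 in Control cortex. Its log2 change of 0.81 had an SE of 0.686, with Control 4 below all others. In Control its probe was well above background in 3 of 4 animals. After normexp the change was 0.10 with 75th percentile scaling and 0.31 with quantile scaling. The mean level of the 9 oligodendrocyte markers was 4.66 in Control 4, the highest of the 8 animals, whose other values were 3.52 to 4.38. Any link between these markers and the Ugt8 values was not tested. Of 10 sulfotransferase genes 3 were members, Sult1d1 at 0.31 (SE 0.259), the brain form Sult4a1 at 0.11 (SE 0.162) and Sult2b1 at 0.07 (SE 0.154). Without Control 1, Sult4a1 was at -0.04 and Sult2b1 at -0.06. The Ugt2b genes, Ugt1a1, Sult1b1 and Sult1e1 were not well above background throughout either group. Of all 70 genes not kept, 47 were well above background on 0 arrays and 14 on 1 array.

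Neighbouring genes of a family had changes of like sign in some clusters and of opposite sign in others. Of the 53 members 28 lay in 12 clusters with another member within 5 protein-coding genes. The pairs Gsta3 and Gsta1, Cyp2j4 and Cyp2j3, and Ugt1a6 and Ugt1a2 had changes of the same sign. So had Cyp4f5 and Cyp4f4, Cyp4f1 and Cyp4f6, and the cluster of Akr1b1, Akr1b8 and Akr1b7. Opposite signs were found in Akr7a2 and Akr7a3, Aldh3a1 and Aldh3a2, Cyp3a62 and Cyp3a9, and Gsto2 and Gsto1. Gstt2 and Gstt1 had opposite signs with the brighter Gstt2 probe only (-0.22 and 0.04). The other Gstt2 probe was at 0.47, and without Control 1 the brighter probe and Gstt1 were at -0.03 and -0.06. The Gstm cluster held both signs. After normexp, Cyp3a62 and Cyp3a9 were at -0.17 and -0.22 with 75th percentile scaling and at 0.05 and -0.14 with quantile scaling. The sign of Gsto1 turned in 8 alternatives. With all arrays no member of any of these clusters passed the test, whether the signs were alike or opposite.

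Single animals stood apart in many members. Control 1 was the animal farthest from the gene's median for 22 members (41.5%, against 67.6% of all genes), HI 2 for 13 (24.5%, against 10.0%) and Control 4 for 8 (15.1%, against 7.10%). The side differed from that of all genes: Control 1 was the lowest animal for 25 members (47.2%, against 31.6%) and the highest for 8 (15.1%, against 45.3%). In 7 members, Cyp4b1, Gsta3, Aldh6a1, Akr1b1, Gstm4, Aldh9a1 and Aldh16a1, Control 1 was more than 1 below the median of the other 7 animals on the log2 scale, and in 0 more than 1 above. Without Control 1, 9 members were higher and 4 lower at an unadjusted p under 0.05, where 20.7% of all genes passed, and 2 (Cyp27b1 and Gstm4) passed the adjusted test, where 3.67% of all genes did. Of the 6 members at an unadjusted p under 0.05 with all animals, 3 remained there without Control 1: Cyp4b1, Gsta1 and Gsta3.

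**Figure D4:**
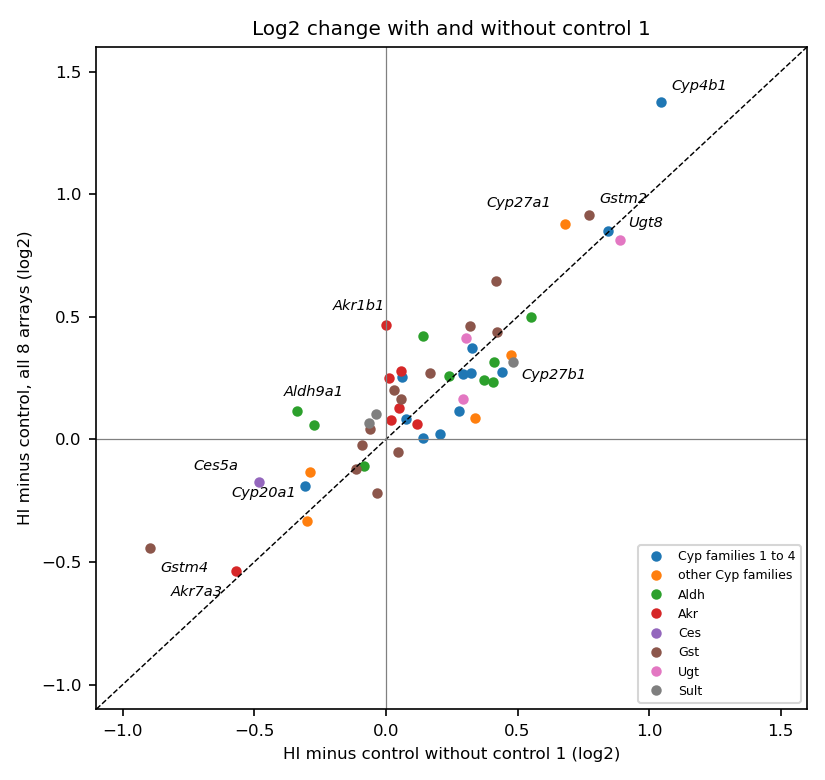
Log2 change (HI minus Control) of each member with all 8 animals (vertical axis) against that without Control 1 (horizontal axis), coloured by family, with a dashed line of equal values. Gstm4 lies off the line, at -0.44 with all animals and -0.90 without Control 1, as does Aldh9a1 at 0.12 and -0.34, while Gsta1 is near it at 0.44 and 0.42.

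HI 2 was more than 1 above the median of the other 7 animals in 4 members, Cyp27a1, Gstm2, Cyp1b1 and Cyp26b1, and in 0 more than 1 below. Markers of the meninges, the connective tissue sheath over the cortex, were high in the same animal. The mean level of the 8 measured of 12 listed meningeal markers was 2.61 in HI 2, against -0.72, -0.08 and 0.11 in the other HI animals and -1.40, -0.21, -0.81 and -0.97 in the Control animals. Among them Col1a2 reached 5.28 in HI 2, with 1.46 to 1.90 in the other HI animals and 0.69 to 1.09 in Control. Choroid plexus markers, 5 of 10 measured, were at 3.69, 3.51 and 3.50 in HI 3, HI 4 and Control 2 and between -2.65 and 0.35 in the other animals. The meningeal markers had a median log2 change of 1.57, and of 0.79 without HI 2. The mean level of 3 red blood cell markers was -0.22, 0.12, 0.65 and -0.65 in HI and -0.67, -1.03, -0.92 and -1.29 in Control. Each of the 3 was higher after HI at an unadjusted p under 0.05, as were 4.44% of all genes, with adjusted p from 0.228 to 0.340. Of 6 endothelial markers 4 were above Control and 2 below, with a median log2 change of 0.25. Of 7 mural markers 4 were above and 3 below, with a median of 0.15. Of the 11 astrocyte markers 4 were above Control and 7 below, among them the connexin gene Gjb6 at 0.88 and S100b at -0.96. The part of these cell types in the members' values was not tested. Without HI 2, 3 members were higher and 0 lower at an unadjusted p under 0.05, against 8.09% of all genes (3.22% higher and 4.87% lower), and 0 passed the adjusted test, against 0.637% of all genes. Without HI 2 and Control 1 together, 9 were higher and 4 lower at an unadjusted p under 0.05, against 20.8% of all genes. Weighting each array by its agreement with its group in the limma fit gave 5 members past the adjusted p, where 6.12% of all genes passed: Cyp27b1 (0.47) and Aldh3a1 (0.41) were higher and Gstm4 (-0.89), Cyp20a1 (-0.30) and Ces5a (-0.52) lower.

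**Figure D5:**
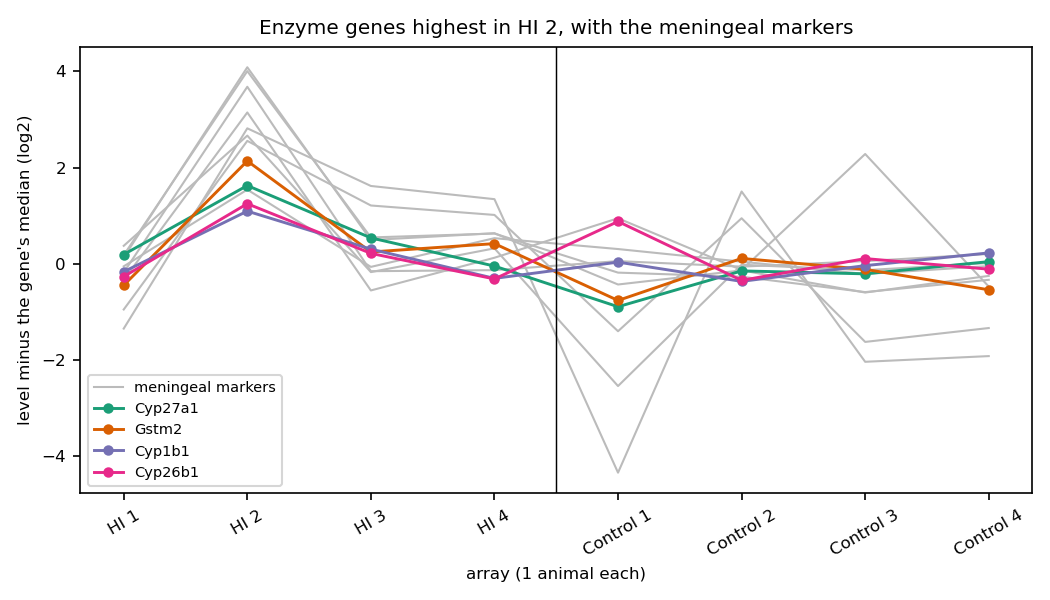
Levels minus each gene's median over the 8 arrays (log2, vertical axis) of Cyp27a1, Gstm2, Cyp1b1 and Cyp26b1 (coloured lines) and of the 8 measured meningeal markers (1 grey line each) in the 4 HI and 4 Control animals. HI 2 is the highest animal for all 4 genes and for each of the 8 markers.

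The partners of these enzymes were also mostly measured above Control. Of 77 listed genes for partners and receptors, other phase I and phase II enzymes and drug transporters, 46 were measured, 34 of them above Control and 12 below, with a median log2 change of 0.31, and 0.12 without Control 1. Over all genes 47.0% were above. Of the 46, 11 were well above background on all HI arrays but not on all Control arrays, 9 of them above 0; among the 35 well above background on all 8 arrays, 25 were above 0 and the median was 0.20. At an unadjusted p under 0.05 there were 6 higher and 1 lower (15.2%, against 10.6% of all genes). Of the 46, 1 passed the adjusted test, where 0.918% of all genes did. The lists were chosen with earlier results of these data known, so this call is a description only. The gene was Ptges, the glutathione-dependent synthase of prostaglandin E2. It measured -2.03, -0.91, -2.02 and -1.78 in HI cortex and -3.08, -4.62, -5.04 and -4.80 in Control cortex, with no overlap. Ptges rose by 2.70 (SE 0.456, adjusted p = 0.0439), with its probe well above background in 3 of 4 Control animals, so it too was kept through the HI group alone.

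Among the 7 measured P450 partners and xenobiotic receptors, 6 were above Control, with a median log2 change of 0.36. Nfe2l2, which encodes Nrf2, measured -0.04, 0.14, 0.09 and 0.16 in HI cortex and -0.58, -0.09, -0.75 and -0.48 in Control cortex. All HI animals were above all Control animals, by 0.56 on average (SE 0.152, adjusted p = 0.215). Cyb5a, the cytochrome b5 that hands electrons to P450s, differed by 0.39 (SE 0.182, adjusted p = 0.507). Of 13 other phase I enzymes, Por counted in both lists, 11 were above Control, with a median of 0.45, led by p-value by the flavin monooxygenase Fmo2 (1.39, SE 0.500, adjusted p = 0.365) and the xanthine dehydrogenase Xdh (0.92, SE 0.397, adjusted p = 0.468). In Control both were well above background in 2 of 4 animals. Of 12 other phase II genes 9 were above Control, with a median of 0.18. Of 15 drug transporters 9 were above and 6 below, with a median of 0.14. Without Control 1 the medians of these lists were 0.19, 0.18, 0.04 and 0.17, in the order given here. The efflux pump Abcg2 of the blood-brain barrier differed by 1.04 (SE 0.348, adjusted p = 0.328), and Abcc1, which exports glutathione conjugates, by -0.58 (SE 0.186, adjusted p = 0.311). Without Control 1, Abcc1 differed by -0.39 and passed the test (adjusted p = 0.0324), as did Ptges, where 3.67% of all genes passed.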

How the data were processed

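Cortical total RNA of 4 HI and 4 Control rats was put on 1-colour (Cy3) Agilent rat arrays, 1 sample each, per the labels. The deposited scanner files, made with Agilent Feature Extraction 9.5.3.1 per the file headers, hold for each spot an intensity (the processed signal, with median signals of the spot and its local background) and flags. The deposited series table holds log2 values whose columns correlated at 0.9997 or above with the scanner values used here after centring each probe on its median over arrays; it served as an alternative, and its column medians were 0.48 for Control 1 and -0.05 to 0.04 for the others. How the signal was background-corrected is not given in the sources used here.

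Of 45018 spots per array 1639 controls were left out, outlier-flagged spots were set to missing (87 probe values in all), and spots of a probe were averaged, giving 41012 probes. Values are log2 of the processed signal, from which the 75th percentile on that array was subtracted. The filter asked for a probe well above background (for most of its spots) on all arrays of a group, which left 24875. RefSeq accessions without version named 10735 probes by 1 gene through GRCr8, and 30277 kept the file's name. The brightest kept probe over all arrays stood for a gene, giving 21677 genes, 5952 with a symbol. HI was compared with Control in limma 3.58.1 under R 4.3.3 (lmFit and eBayes, Benjamini-Hochberg adjustment over all genes), and a second probe of a gene in a fit over all kept probes. The fit was tested on simulated data. Replicates are separate animals, and the number of arrays limits the precision.

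The members and lists were chosen with earlier results of these data known. Genes were named by rule: members past the adjusted p, the 15 higher and 15 lower with the smallest p (only 11 were lower), the brightest and most variable of each family, members dim in a group, members whose probes disagree, and in each list those that passed or the first 2 by p. Others, with Cyp1b1 and the family members given by value alone, were chosen after their values were seen. Alternatives were normexp background correction (offset 50), quantile, median and 75th percentile scaling, other filters, averaging a gene's probes, the authors' table, array weights, a robust prior with an intensity trend, leaving out arrays and a replicate block.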

Additional observations from a re-analysis of the deposited data

Results flagged for a closer look

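Within each group of 4 animals, the highest or lowest value of a member was set against the gap that Dixon's test allows. This picked out 12 of 106 groups, 11.3%, where chance gives about 5%, so some of the 12 are of the kind chance would give.

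Control 1 supplied 8 of them. It lay below the other Control animals in Cyp4b1 (-6.28, the others -5.04 to -4.83), Aldh6a1 (-4.22, the others -3.19 to -2.99), Cyp2d4 (0.19, the others 0.94 to 1.00), Akr1a1 (3.37, the others 4.24 to 4.30), Cyp20a1 (0.39, the others 0.95 to 1.06) and Aldh9a1 (-2.36, the others -0.60 to -0.50). It lay above them in the neighbouring Cyp4f6 (2.26, the others 1.46 to 1.58) and Cyp4f1 (1.69, the others 1.10 to 1.19). Control 4 was low in Aldh1a1 (-1.16, the others 0.00 to 0.14). Among HI animals, HI 2 was high in Gstt1 (-1.58, the others -2.32 to -2.22), and HI 3 was high in Cyp4f6 (1.86, the others 1.69 to 1.72) and low in Cyp4f1 (1.19, with the others at 1.33).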

How the results depend on the processing

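Of the 53 members, 30 kept 1 sign in all 20 alternatives and 23 did not. The adjusted p was passed by 0 members with all arrays, by 0 to 2 when single arrays were left out, by 1 without Control 1 and HI 2 together (Aldh9a1, whose change turned to -0.39) and by 5 with array weights, which gave Control 1 a weight of 0.0328; these 5 were Cyp27b1, Aldh3a1, Gstm4, Cyp20a1 and Ces5a, and 6.12% of all genes passed there. At an unadjusted p under 0.05 the members numbered 5 higher and 1 lower as reported, 2 to 9 higher and 0 to 4 lower without single arrays, 9 higher and 4 lower without both, 12 higher and 5 lower with array weights (all genes 10.8% and 11.2%), and 8 higher and 0 lower with median scaling (all genes 5.23% and 5.47%). With no filter, of all 123 genes of the rule 7 were higher and 3 lower (all genes 2.59% and 5.76%). The median change was 0.14 to 0.23 without single arrays. With no filter it turned to -0.13 (all genes -0.17), and the medians were -0.25 for the P450 families 1 to 4, -0.32 for the other P450 families, -0.12 for Akr, -0.30 for Ugt and -0.30 for Sult. After normexp with the 75th percentile the median was 0.04 (all genes -0.07), with 0.049 for the P450 families 1 to 4 and -0.13 for Sult. After normexp with quantile scaling it was 0.13 (all genes 0.01), with 0.13 for the P450 families 1 to 4 and 0.08 for Sult. Without normexp the median was 0.22 with quantile scaling, 0.28 with median scaling and 0.22 in the authors' table. Same-numbered animals did not deviate together (correlations of -0.16 to 0.03), and a replicate block gave 8 higher, 0 lower (all genes 3.56% and 4.96%) and 0 adjusted calls. Dim probes limit Cyp4b1, Ugt1a6 and the 8 other members not well above background on all Control arrays. These 8 were Aldh6a1, Aldh16a1, Akr1b7, Ces5a, Cyp3a62, Gsto2, Sult1d1 and Ugt8. No block for slide or scan could be fitted, as each held 1 group. Except where values are given, the causes were not tested.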
